A study of Mus musculus with 10 samples.

Results

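Whole kidneys of mice with Pkd2 deleted were compared with wild-type kidneys at postnatal day 21. The mutants, called SM, carry the genotype Pkhd1Cre with Pkd2 F/F (3 animals), and the controls, called WT, are labelled wild-type and carry no listed allele (4 animals). A further 3 animals, called DM, carry the SM alleles together with miR-21null and entered the same model fit. Every row of the SM against WT comparison that carries a gene name was taken, 23276 of 30431 rows. The other 7155 rows are assembled loci without a name.

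Pkd2 encodes polycystin-2, a cation channel of the primary cilium and the endoplasmic reticulum that works with polycystin-1, the product of Pkd1. Loss of either protein in tubule cells lets tubules widen into fluid-filled cysts, lined by an epithelium that keeps dividing and is surrounded by inflamed and fibrous tissue. Pkhd1Cre is a recombinase driven by regulatory sequence of Pkhd1 and is active mainly in the collecting duct, so the deletion is expected in part of the nephron only. Whole-kidney RNA mixes cyst lining, other tubules, glomeruli, vessels and interstitium. A lower value can therefore be fewer cells of a type or less RNA per cell, and these cannot be told apart.

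The authors deposited the outcome of their own edgeR likelihood ratio test, with no value per library, so the spread between animals can be seen only through the test. A gene is said to rise, fall or be called where the adjusted p of the authors' deposited table is below 0.05. Levels are given in CPM, read counts scaled to library size, computed from the deposited average and fold changes, first in WT and then in SM. The fold between them follows in parentheses with an approximate 95% interval from the implied standard error. CPM is not corrected for gene length, so levels are compared within a gene only. Over all rows the levels sum to 1100450 CPM in WT and 945509 CPM in SM, so the scaling is not by library size alone. No fold is given where a group lies below 0.1 CPM, close to the lowest average in the table, 0.0514 CPM. Each animal has a number of its own, and the labels name no litter.

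Of the 23276 named genes, 3590 differed between SM and WT (15.4%), 2134 higher (9.17%) and 1456 lower (6.26%). Over all 30431 rows, 4248 were called (14%). Of the 14037 named genes averaging 1 CPM or more, 12.7% were called higher and 9.23% lower. These shares are the background for the list counts below, and a count near them says nothing particular of its list. A pair of other readings stands in parentheses beside the counts of called genes in each list below. The F reading sets each likelihood ratio against an F distribution with 1 and 7 degrees of freedom, which allows for the small number of animals. It kept 636 named genes (2.73%), 512 higher (2.2%) and 124 lower (0.533%). The equal-totals reading, chosen after the data were seen, moves all log2 fold changes up by 0.22, the shift that makes the summed levels of SM and WT equal. It sets aside the scaling between groups in the authors' fit, and which of them is nearer the truth was not tested. As deposited, 59.4% of the called genes were higher, and this share was 79.8% with equal totals and 80.5% by the F reading.

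The higher and the lower genes sat at different levels. Between 1 and 10 CPM, 22.2% of 3582 genes were called higher and 5.75% lower. Between 100 and 1000 CPM the order was the other way round, with 7.94% of 2065 genes higher and 20.4% lower. Above 1000 CPM, 4 of 59 genes rose and 18 fell. Among called genes, the higher ones also differed by more. Their median implied standard error was larger as well, 0.32 against 0.26 for lower genes, so they tended to need a larger fold to be called. How much this adds to the difference in size was not tested. The median size on the log2 scale was 1.41 for the 2134 higher genes and 0.98 for the 1456 lower genes, and 571 higher against 160 lower genes reached a size of at least 2. The median log2 fold change of the 14037 named genes averaging 1 CPM or more was 0.01.

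**Figure D1:**
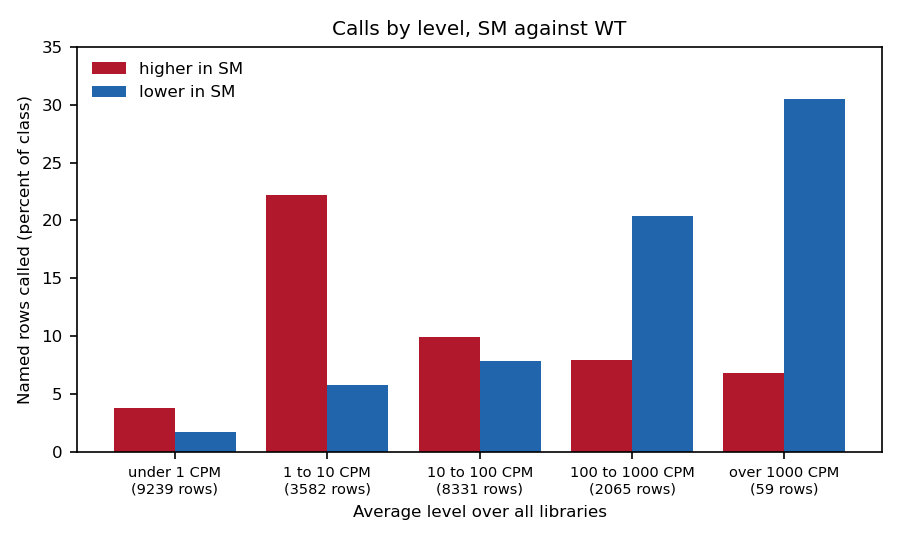
Share of named genes called higher (red) or lower (blue) in SM against WT, in percent of the genes in each class of average level in CPM. Between 1 and 10 CPM the higher share was 22.2% against 5.75% lower, and above 1000 CPM the lower share was 30.5% against 6.78%.

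Pkd2 itself (chromosome 5, 104453982 to 104505819, GRCm38) stood at 239 CPM in WT and 179.7 CPM in SM (1.33-fold lower, 1.01 to 1.74). Its log2 fold change was -0.41 with an adjusted p of 0.179 in the authors' deposited table, so it was not called. The row covers the whole gene and the whole kidney, so it does not check the deletion, which is limited to the cells of the driver. Pkd1 stood at 99.7 CPM in WT and 108 CPM in SM (1.08-fold higher, 0.82 to 1.43). Of 22 genes mutated in cystic kidney diseases and ciliopathies, 1 rose and 0 fell (0 by the F reading, 3 with equal totals). That gene was Bicc1, an RNA-binding protein whose loss also causes cysts, which rose from 262 to 482 CPM (1.84-fold, 1.3 to 2.61). No call here held by the F reading.

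The genes with the highest likelihood ratios among those that rose included injury markers, a collagen and a cytokine receptor. Lcn2 (chromosome 2, 32384637 to 32387739), which encodes the iron-binding tubular injury protein NGAL, rose from 4.59 to 250.1 CPM (54.5-fold, 34.3 to 86.4). Havcr1 (chromosome 11, 46739822 to 46779578), the injury receptor KIM-1, rose from 0.319 to 67.9 CPM (213-fold, 82.5 to 550.1), the largest fold among higher genes that reached 10 CPM in SM. Col12a1, a fibril-associated collagen, rose from 22.4 to 512 CPM (22.8-fold, 15.3 to 34.1). Il18r1, a receptor chain for interleukin-18, rose from 1.51 to 32.9 CPM (21.8-fold, 14.7 to 32.4). B4galnt2, which makes the Sda blood group sugar, rose from 1.36 to 27.8 CPM (20.4-fold, 13.7 to 30.5). Msln, the surface glycoprotein mesothelin, rose from 3.91 to 36.3 CPM (9.29-fold, 6.73 to 12.8). Aldh1a1, a retinaldehyde dehydrogenase, rose from 5.35 to 42.6 CPM (7.96-fold, 5.93 to 10.7). Scn8a, a sodium channel known from neurons, rose from 0.936 to 17.8 CPM (19-fold, 12.4 to 29.2), and Lgi2, a secreted protein known from brain, rose from 1.05 to 33.6 CPM (31.9-fold, 19.9 to 51.1). Megf6 rose from 2.18 to 24.5 CPM (11.3-fold, 7.81 to 16.2). The F reading left these calls in place.

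Among genes at high level, the osteopontin gene Spp1, a secreted phosphoprotein of injured tubules, rose from 2124 to 7959 CPM (3.75-fold, 2.26 to 6.22). Clu, the chaperone clusterin, rose from 216 to 943 CPM (4.37-fold, 2.87 to 6.67). Sparc, a matrix-binding glycoprotein, rose from 999 to 1796 CPM (1.8-fold, 1.19 to 2.72). Ctsd, a lysosomal protease, rose from 666 to 1093 CPM (1.64-fold, 1.15 to 2.35). Bcam, a laminin receptor, rose from 318 to 794 CPM (2.5-fold, 1.8 to 3.48). Myh9, a nonmuscle myosin heavy chain, rose from 425 to 789 CPM (1.86-fold, 1.19 to 2.9), and the adhesion receptor Gpr56 rose from 465 to 864 CPM (1.86-fold, 1.25 to 2.75). Among the largest folds were those of genes that were low in WT. Sprr2g, which RefSeq lists as a transcribed pseudogene of a cornified envelope gene family, rose from 0.292 to 11.9 CPM (40.8-fold, 21.2 to 78.2), and Lgals7, a galectin of stratified epithelia, rose from 0.356 to 12.5 CPM (35.2-fold, 18.5 to 67.1). Sprr2 genes are close copies of each other, so their counts are uncertain. Clu, Bcam, Sprr2g and Lgals7 also passed by the F reading.

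**Figure D2:**
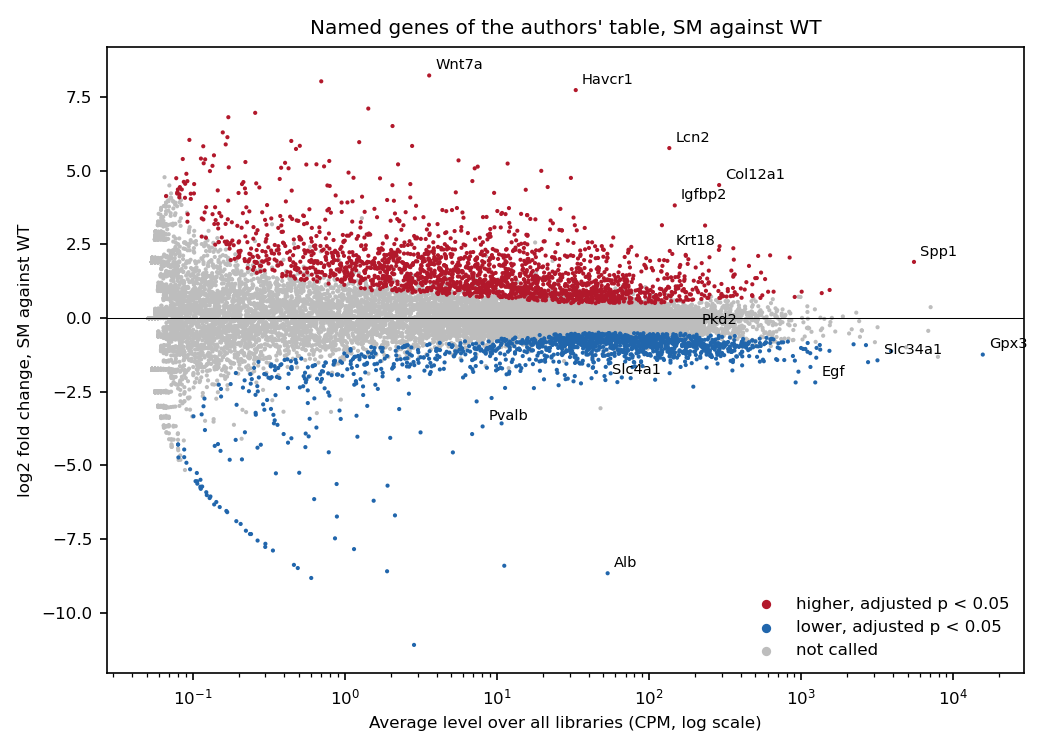
Each point is a named gene, with its average level over all 10 libraries in CPM on a log axis and its log2 fold change in SM against WT. Red and blue points were called higher (2134) or lower (1456), grey points were not called, and most genes above 1000 CPM that were called lie below 0.

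The lower genes with the highest likelihood ratios included transporters, enzymes and a calcium-binding protein. Slc4a1, the chloride-bicarbonate exchanger of acid-secreting cells, fell from 94 to 21.9 CPM (4.3-fold, 3.26 to 5.66). Pvalb, the calcium-binding protein parvalbumin of the distal convoluted tubule, fell from 16.5 to 1.29 CPM (12.8-fold, 7.25 to 22.6). Dio1, the deiodinase that activates thyroid hormone, fell from 111 to 24.6 CPM (4.51-fold, 3.16 to 6.44). Ppp1r1b, the phosphatase inhibitor DARPP-32, fell from 59.4 to 13.4 CPM (4.42-fold, 3.16 to 6.18). Eci3, an enoyl-CoA isomerase of fatty acid breakdown, fell from 72.2 to 22.7 CPM (3.17-fold, 2.37 to 4.26). Aspg, an asparaginase, fell from 47.2 to 12.3 CPM (3.83-fold, 2.68 to 5.46). Slc30a2, a zinc transporter, fell from 57.3 to 19.6 CPM (2.92-fold, 2.18 to 3.9). 2310042D19Rik, named Perm1 in RefSeq and known as a regulator of mitochondrial genes in muscle, fell from 19.2 to 2.93 CPM (6.55-fold, 3.93 to 10.9). Of the other genes of this set, Nccrp1, D630023F18Rik, Dusp15, Tmem207, Fam151a and Fads6 fell by between 3.22-fold and 5.17-fold. Slc22a6, also of this set, is described with the proximal tubule below. Each of these calls held by the F reading.

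The collecting duct holds principal cells, which take up water and sodium, and intercalated cells, which move acid and base. Their genes went in opposite directions. Of 18 principal cell genes, 10 rose and 0 fell (2 by the F reading, 11 with equal totals), and their median log2 fold change was 0.64. Aqp4, a basolateral water channel, rose from 74.2 to 246 CPM (3.32-fold, 2.47 to 4.45). Hsd11b2, which inactivates glucocorticoids and so reserves the mineralocorticoid receptor for aldosterone, rose from 151 to 349.9 CPM (2.32-fold, 1.73 to 3.12). Elf5, a transcription factor of this cell type, rose from 16.8 to 48.6 CPM (2.89-fold, 1.85 to 4.52). Scnn1b, a subunit of the epithelial sodium channel, rose from 91.9 to 188 CPM (2.04-fold, 1.46 to 2.85). The vasopressin-regulated channel Aqp2 was not called and stood at 279.6 CPM in WT and 231 CPM in SM (1.21-fold lower, 0.718 to 2.05), and Aqp3 stood at 168 CPM in WT and 139.7 CPM in SM (1.21-fold lower, 0.851 to 1.71). Aqp4 and Hsd11b2 also passed by the F reading.

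Of 16 intercalated cell genes, 0 rose and 9 fell (2 by the F reading, 6 with equal totals), with a median of -0.76. Besides Slc4a1, which is also on the list of erythroid markers below, they included subunits of the proton pump. Atp6v1g3 fell from 112 to 53.9 CPM (2.08-fold, 1.59 to 2.72) and Atp6v1c2 fell from 29.9 to 14.2 CPM (2.11-fold, 1.53 to 2.92). Rhbg, an ammonia channel, fell from 56.6 to 24 CPM (2.36-fold, 1.7 to 3.27). The bicarbonate secreting exchanger pendrin, Slc26a4, stood at 46.7 CPM in WT and 27.5 CPM in SM (1.7-fold lower, 1.11 to 2.61) and was not called. With equal totals 1 gene of this list was called higher. Atp6v1g3 also passed by the F reading.

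The loop of Henle and the distal tubule reclaim salt and set the balance of potassium, calcium and magnesium. Of 24 genes, 13 fell (6 by the F reading, 10 with equal totals) and 2 rose (0 by the F reading, 4 with equal totals), with a median of -0.58. Slc12a1, the cotransporter blocked by loop diuretics, fell from 1726 to 855 CPM (2.02-fold, 1.3 to 3.14). Slc12a3, the cotransporter blocked by thiazides, fell from 846 to 318 CPM (2.66-fold, 1.8 to 3.94). Wnk4, the kinase that regulates it, fell from 215 to 85.6 CPM (2.51-fold, 1.89 to 3.32). Ptger3, a prostaglandin E2 receptor of the thick limb, fell from 141 to 50.1 CPM (2.83-fold, 2.06 to 3.87). In contrast, the calcium channel Trpv5 rose from 36.2 to 62.6 CPM (1.73-fold, 1.33 to 2.25), and Cldn14, a claudin that limits calcium uptake in the thick limb, rose from 0.48 to 1.39 CPM (2.9-fold, 1.47 to 5.68). Of 14 medullary osmolyte and urea genes, 1 rose (0 by the F reading, 2 with equal totals) and 3 fell (1 by the F reading, 1 with equal totals). The inositol transporter Slc5a3 fell from 312 to 161 CPM (1.93-fold, 1.24 to 3.01). The urea transporter gene Slc14a2 stood at 232 CPM in WT and 192 CPM in SM (1.21-fold lower, 0.867 to 1.68). Wnk4 and Ptger3 also passed by the F reading. Slc12a1 and Slc5a3 did not pass with equal totals.

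**Figure D3:**
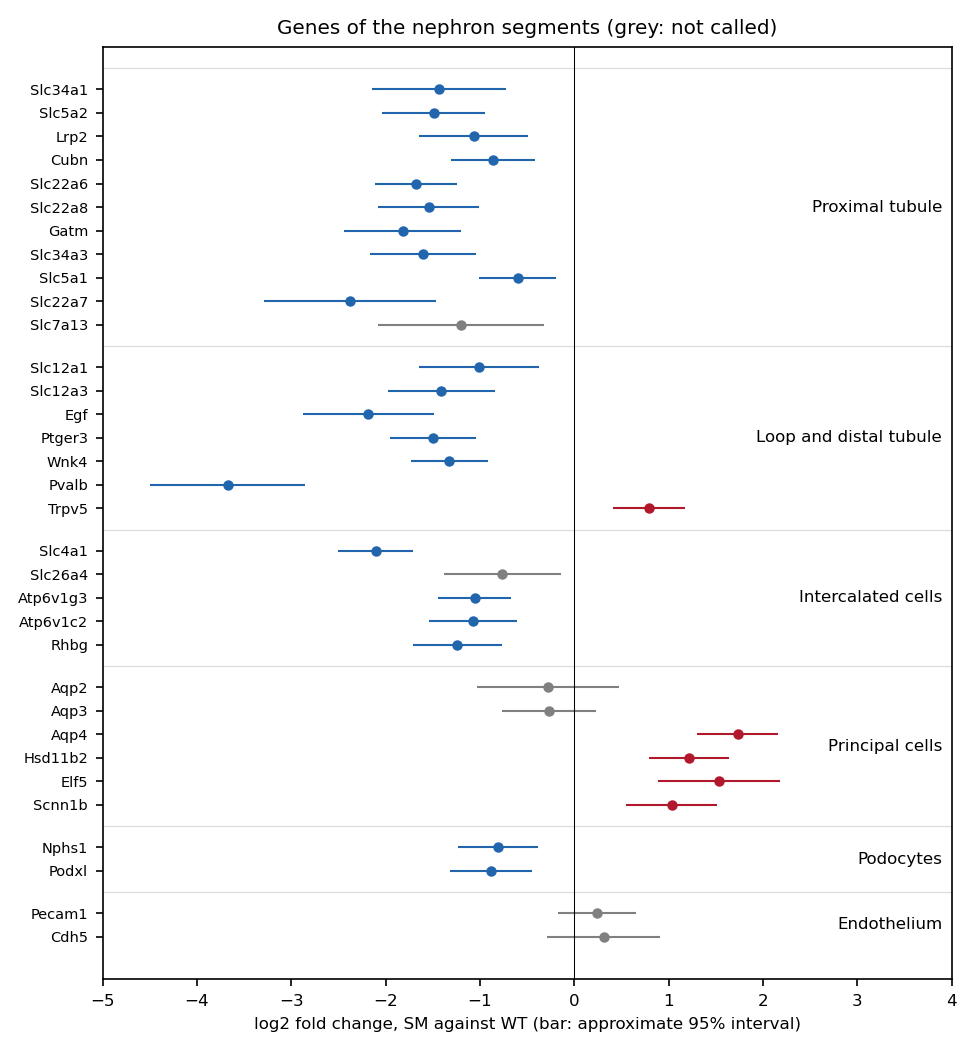
Log2 fold change in SM against WT of genes that mark nephron segments and vessels, with approximate 95% intervals from the implied standard error. Red and blue points were called higher or lower and grey points were not called. Proximal, loop and intercalated genes lie left of 0 and Aqp4, Hsd11b2, Elf5, Scnn1b and Trpv5 lie right of it.

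Keratins, the intermediate filaments of epithelia, rose in 12 of 17 measured members (8 by the F reading, 12 with equal totals) and fell in 1 (0 by the F reading, 0 with equal totals), with a median of 2.04. Krt8 and Krt18 pair in simple epithelia. Krt8 rose from 142 to 321 CPM (2.25-fold, 1.67 to 3.05) and Krt18 rose from 43 to 209 CPM (4.85-fold, 3.64 to 6.47). Krt19, known from ducts, rose from 22.3 to 119 CPM (5.33-fold, 3.8 to 7.48), and Krt80 rose from 16.3 to 82.1 CPM (5.04-fold, 3.72 to 6.82). Krt17, a keratin of stressed and stratified epithelium, rose from below 0.1 to 3.76 CPM. Keratins of this kind have close relatives, so reads may be shared between them. Krt222 fell from 1.65 to 0.796 CPM (2.07-fold, 1.23 to 3.5). Krt18, Krt19, Krt80 and Krt17 also passed by the F reading. Krt222 did not pass with equal totals.

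Claudins form the seal between tubule cells and set what passes it. Of 20 measured, 8 rose (2 by the F reading, 9 with equal totals) and 1 fell (0 by the F reading, 0 with equal totals). Cldn4, a claudin of the collecting duct, rose from 35.9 to 147 CPM (4.09-fold, 3.06 to 5.45). Cldn3 rose from 10.9 to 28.9 CPM (2.66-fold, 1.94 to 3.64), Cldn23 rose from 0.789 to 2.9 CPM (3.68-fold, 2.24 to 6.04), and Cldn6, known from embryonic epithelia, rose from 2.08 to 6.46 CPM (3.11-fold, 1.98 to 4.87). Cldn10 fell from 224 to 129.9 CPM (1.73-fold, 1.27 to 2.35). The leaky claudin of the proximal tubule, Cldn2, stood at 764 CPM in WT and 522 CPM in SM (1.46-fold lower, 1.03 to 2.09). Cldn4 and Cldn3 also passed by the F reading. Cldn10 did not pass with equal totals.

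Glycoproteins of the luminal and outer cell surface rose in 12 of 18 members (6 by the F reading, 15 with equal totals), and none fell. The list's summed level was 3743 CPM in WT and 11722 CPM in SM, and Spp1 made up most of it. Muc1, a membrane mucin, rose from 56 to 215 CPM (3.84-fold, 2.58 to 5.71). Muc4, another, rose from 1.89 to 12.5 CPM (6.62-fold, 2.95 to 14.8). Lgals3, galectin-3, rose from 48.1 to 188 CPM (3.9-fold, 3.02 to 5.05). Mal2, a protein of apical transport, rose from 89.7 to 326.7 CPM (3.64-fold, 2.66 to 4.99). Muc1, Lgals3 and Mal2 also passed by the F reading.

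Transcription factors were taken in 3 lists. Factors of the epithelial injury response rose in 18 of 28 members (10 by the F reading, 21 with equal totals), with a median of 1.08. Foxj1, the regulator of motile cilia, rose from 0.615 to 5.61 CPM (9.11-fold, 5.37 to 15.5). Runx1 rose from 2.41 to 20.5 CPM (8.48-fold, 4.93 to 14.6). The immediate early factors Fos and Junb rose from 2.04 to 14.9 CPM (7.29-fold, 4.32 to 12.3) and from 19.8 to 64 CPM (3.24-fold, 2.43 to 4.32). The epithelial factor Elf3 rose from 28.2 to 82.8 CPM (2.93-fold, 2.15 to 3.99) and its relative Ehf rose from 91.1 to 145 CPM (1.59-fold, 1.16 to 2.18). Of 29 factors of kidney development, 6 rose (1 by the F reading, 10 with equal totals) and 1 fell (0 by the F reading, 1 with equal totals). Sox4 rose from 37.3 to 130.4 CPM (3.5-fold, 2.6 to 4.71), Myc rose from 14.8 to 53.2 CPM (3.59-fold, 2.21 to 5.82), Tfap2a rose from 7.77 to 19.3 CPM (2.48-fold, 1.54 to 4.01), and Emx1 fell from 35.8 to 15.4 CPM (2.33-fold, 1.62 to 3.34). Pax2, which marks the nephron progenitors and their tubules, stood at 67.2 CPM in WT and 77.8 CPM in SM (1.16-fold higher, 0.724 to 1.85). Foxj1, Runx1, Fos, Junb, Elf3 and Sox4 also passed by the F reading.

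Of 24 factors and coactivators of the mature tubule, 6 fell (0 by the F reading, 3 with equal totals) and none rose, with a median of -0.47. Hnf4a, a regulator of proximal tubule and liver genes, fell from 786 to 446 CPM (1.76-fold, 1.25 to 2.49). Esrra, the estrogen-related receptor that drives mitochondrial genes, fell from 147 to 60.7 CPM (2.42-fold, 1.63 to 3.59), and its coactivator Ppargc1b fell from 32 to 14.8 CPM (2.17-fold, 1.49 to 3.15). None of these calls held by the F reading. Hnf4a did not pass with equal totals.

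**Figure D4:**
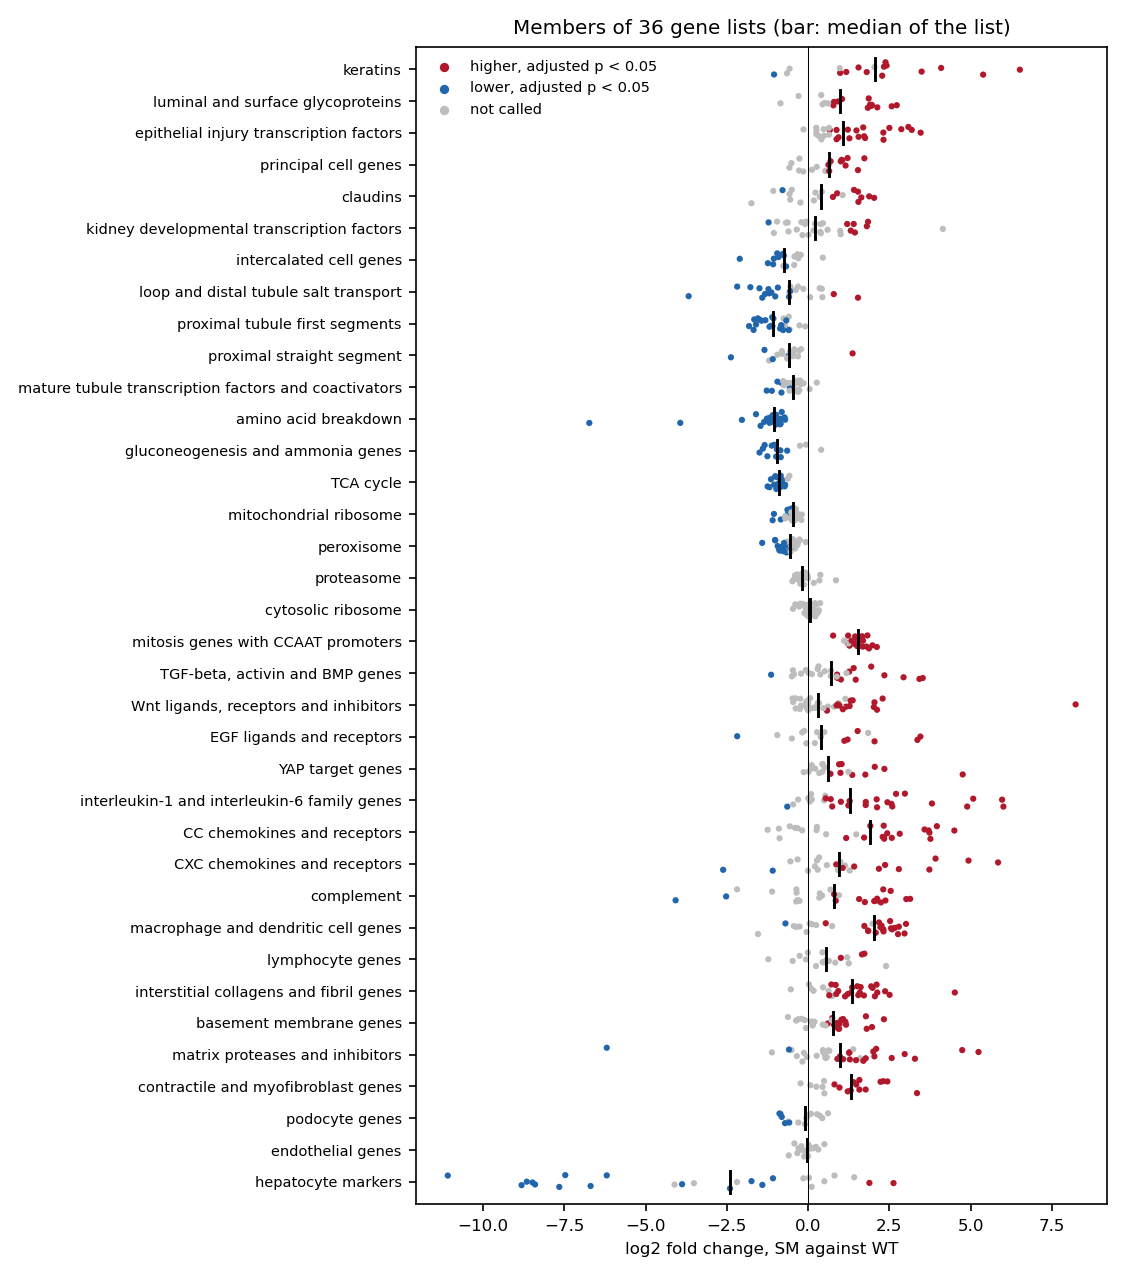
Log2 fold change in SM against WT of the measured members of 36 gene lists, 1 point per gene, with a black bar at the median of each list. Keratins (median 2.04), macrophage genes (2.03) and mitosis genes (1.53) lie right of 0, proximal tubule (-1.07) and amino acid breakdown genes (-1.04) lie left of it, and cytosolic ribosome genes (0.06) lie around it.

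The proximal tubule reclaims glucose, phosphate, amino acids and filtered protein. Of 25 genes of its first segments, 19 fell (5 by the F reading, 14 with equal totals) and none rose, with a median of -1.07 and a range of -1.82 to -0.09. Their summed level was 18672 CPM in WT and 8198 CPM in SM. Slc34a1 (chromosome 13, 55399622 to 55414695), the main phosphate cotransporter, fell from 5030.2 to 1862 CPM (2.7-fold, 1.66 to 4.41), and its relative Slc34a3 fell from 67.3 to 22.1 CPM (3.04-fold, 2.05 to 4.5). Slc5a2, the glucose cotransporter SGLT2, fell from 567 to 202 CPM (2.81-fold, 1.93 to 4.11). Lrp2, the endocytic receptor megalin, fell from 1893 to 902 CPM (2.1-fold, 1.4 to 3.13). The organic anion transporters Slc22a6 and Slc22a8 fell from 397 to 124 CPM (3.2-fold, 2.37 to 4.32) and from 455 to 156 CPM (2.92-fold, 2.02 to 4.23). Gatm, the first enzyme of creatine synthesis, fell from 1712 to 485 CPM (3.53-fold, 2.3 to 5.42). Slc34a3, Slc5a2, Slc22a6, Slc22a8 and Gatm also passed by the F reading.

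In the straight segment, 4 of 19 genes fell (0 by the F reading, 3 with equal totals) and 1 rose (0 by the F reading, 1 with equal totals), although 18 of them lay below 0. Slc22a7, an organic anion transporter, fell from 32.5 to 6.27 CPM (5.19-fold, 2.76 to 9.78). Ggt1, which splits glutathione, fell from 637 to 299 CPM (2.13-fold, 1.51 to 2.99), and Aadat, a lysine pathway aminotransferase, fell from 1942 to 765 CPM (2.54-fold, 1.54 to 4.19). Cyp7b1, an oxysterol hydroxylase, rose from 2.26 to 5.82 CPM (2.58-fold, 1.74 to 3.82). Slc7a13, a marker of the last segment, stood at 81.4 CPM in WT and 35.4 CPM in SM (2.3-fold lower, 1.25 to 4.23). The highest level of any lower gene was that of Gpx3, the secreted glutathione peroxidase of the proximal tubule, which fell from 23748 to 10064 CPM (2.36-fold, 1.3 to 4.27). The F reading ended these calls. Gpx3 did not pass with equal totals.

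The tubule cells that do this work burn amino acids and fat and make glucose. Of 27 genes of amino acid breakdown, 26 fell (5 by the F reading, 23 with equal totals), with a median of -1.04. Bhmt, which remethylates homocysteine, fell from 14.8 to 0.966 CPM (15.3-fold, 6.54 to 35.8). Hpd, of tyrosine breakdown, fell from 148 to 35.9 CPM (4.11-fold, 2.38 to 7.08). Aldh4a1, of proline breakdown, fell from 653 to 215 CPM (3.04-fold, 2.07 to 4.47). Sardh, the sarcosine dehydrogenase, fell from 202 to 89.6 CPM (2.26-fold, 1.73 to 2.95), and Gcsh, a part of the glycine cleavage system, fell from 143 to 61.8 CPM (2.31-fold, 1.78 to 3.01). Bhmt, Aldh4a1, Sardh and Gcsh also passed by the F reading.

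Of 14 genes of glucose and ammonia production, 11 fell (0 by the F reading, 6 with equal totals), and with equal totals 1 was called higher. Pck1, the step from oxaloacetate to phosphoenolpyruvate, fell from 4125 to 1463 CPM (2.82-fold, 1.73 to 4.59). Fbp1 fell from 1075 to 409 CPM (2.63-fold, 1.75 to 3.95), and the fructose kinase Khk fell from 372 to 156 CPM (2.38-fold, 1.59 to 3.57). G6pc, the last enzyme of glucose release, fell from 497 to 251 CPM (1.98-fold, 1.21 to 3.24). None of these calls held by the F reading. G6pc did not pass with equal totals.

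Of 22 genes of the TCA cycle and pyruvate entry, 20 fell (0 by the F reading, 12 with equal totals). Mpc1, a subunit of the pyruvate carrier, fell from 368 to 161 CPM (2.28-fold, 1.6 to 3.26). Sdhb, of succinate dehydrogenase, fell from 417 to 176 CPM (2.37-fold, 1.59 to 3.55). The first enzyme, citrate synthase, Cs, stood at 376 CPM in WT and 252 CPM in SM (1.49-fold lower, 1.11 to 2). Of 32 mitochondrial ribosome genes, 8 fell (1 by the F reading, 2 with equal totals), and 32 had a value below 0. Their most changed member, Mrpl12, fell from 227 to 106 CPM (2.13-fold, 1.61 to 2.82). The ATP synthase genes Atp5b and Atp5a1 fell from 3665 to 1940.3 CPM (1.89-fold, 1.21 to 2.94) and from 3029 to 1635 CPM (1.85-fold, 1.23 to 2.8). Mrpl12 also passed by the F reading. Atp5b and Atp5a1 did not pass with equal totals.

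Of 28 peroxisome genes, 13 fell (1 by the F reading, 4 with equal totals). Acaa1b, a thiolase, fell from 165 to 62 CPM (2.67-fold, 1.88 to 3.78), and Acox2, a branched-chain oxidase, fell from 166 to 86.5 CPM (1.92-fold, 1.45 to 2.53). Cat, catalase, fell from 828 to 461 CPM (1.8-fold, 1.22 to 2.65). Of 28 antioxidant genes, 8 fell (0 by the F reading, 3 with equal totals) and 3 rose (1 by the F reading, 3 with equal totals). Sod2, the mitochondrial superoxide dismutase, fell from 346 to 156 CPM (2.22-fold, 1.64 to 3.01), whereas Hmox1, heme oxygenase, rose from 18 to 57.2 CPM (3.18-fold, 2.33 to 4.34). Cholesterol synthesis had 2 lower genes of 22 (0 by the F reading, 1 with equal totals), near the background of 9.23% of named genes averaging 1 CPM or more. The authors' edgeR test called no gene of 2 housekeeping lists, and 0 of their genes had an unadjusted p below 0.05. The median of 28 proteasome genes was -0.19, which turns positive with equal totals, and that of 38 cytosolic ribosome genes was 0.06. Of 23 endoplasmic reticulum stress genes, 1 rose (0 by the F reading, 6 with equal totals), the asparagine synthetase Asns, from 4.6 to 9.04 CPM (1.97-fold, 1.29 to 3.01). Acaa1b and Hmox1 also passed by the F reading. Cat did not pass with equal totals.

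Promoters of the lower genes were searched for the word GTTAATNAT, known from promoters of liver and kidney genes, on both strands. The window ran from 250 bases before to 50 bases after the RefSeq start. Of 969 lower genes with a promoter sequence, 18 held the word (1.86%), against 7 of 1278 higher genes (0.548%), 34 of 8128 genes that were not called (0.418%) and 59 of all 10375 (0.569%). These shares were not tested. Because the share was highest in the lower genes, 5 of the 18 windows are shown, with 140 bases before and 10 after the start, GRCm38.p6, written along the gene 5′ to 3′, the word or its reverse complement in capitals:
Afm, chr5:90518809-90518958, plus strand: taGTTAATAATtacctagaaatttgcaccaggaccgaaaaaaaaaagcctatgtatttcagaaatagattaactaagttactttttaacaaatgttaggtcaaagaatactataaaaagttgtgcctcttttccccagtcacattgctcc
F13b, chr1:139501567-139501716, plus strand: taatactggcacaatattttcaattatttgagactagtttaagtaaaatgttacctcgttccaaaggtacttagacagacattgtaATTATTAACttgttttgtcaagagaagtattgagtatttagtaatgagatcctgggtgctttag
Glyctk, chr9:106158129-106158278, minus strand: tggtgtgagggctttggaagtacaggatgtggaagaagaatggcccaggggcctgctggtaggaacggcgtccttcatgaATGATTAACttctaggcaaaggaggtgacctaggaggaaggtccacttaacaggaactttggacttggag
Pcbd1, chr10:61089191-61089340, plus strand: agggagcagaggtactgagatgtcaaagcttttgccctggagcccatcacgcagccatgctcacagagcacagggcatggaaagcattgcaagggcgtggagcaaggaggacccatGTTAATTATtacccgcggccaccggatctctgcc
Hoga1, chr19:42045730-42045879, plus strand: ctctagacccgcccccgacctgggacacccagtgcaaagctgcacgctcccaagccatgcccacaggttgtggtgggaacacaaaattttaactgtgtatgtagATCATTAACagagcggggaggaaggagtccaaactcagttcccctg

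These genes were chosen after their values were seen, for their level and their place in kidney or liver metabolism. Afm, which encodes the vitamin E binding protein afamin, fell from 88.3 to 36.3 CPM (2.43-fold, 1.84 to 3.21). F13b, a clotting factor subunit, fell from 183 to 82.4 CPM (2.23-fold, 1.62 to 3.05). Glyctk, a glycerate kinase, fell from 126 to 58.9 CPM (2.14-fold, 1.5 to 3.05). Pcbd1, an enzyme of biopterin recycling, fell from 192 to 86.7 CPM (2.21-fold, 1.49 to 3.28). Hoga1, an enzyme of hydroxyproline breakdown, fell from 215 to 129 CPM (1.66-fold, 1.18 to 2.33). The 18 genes also hold the liver products Alb and Pzp, whose levels stood at 132 and 4.65 CPM in WT and at 0.328 and below 0.1 CPM in SM. Pzp was named after its values were seen. Of 25 liver markers, 14 fell, and their part in these counts was not tested. Of the 18 genes, 2 passed by the F reading. A match describes the letters and shows no binding. Afm also passed by the F reading. Hoga1 did not pass with equal totals.

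Genes of cell division rose together. Of 24 genes of mitosis, 22 rose (0 by the F reading, 24 with equal totals), and their median log2 fold change was 1.53. Ccnb1 and Ccnb2, the B-type cyclins that start mitosis, rose from 3.89 to 12.3 CPM (3.15-fold, 1.62 to 6.13) and from 5.66 to 17.9 CPM (3.15-fold, 1.58 to 6.29). Ndc80, which ties chromosomes to the spindle, rose from 1.43 to 5.22 CPM (3.66-fold, 2.08 to 6.42). Cdc25c, the phosphatase that activates the mitotic kinase, rose from 0.476 to 2.06 CPM (4.33-fold, 2.32 to 8.07). Bub1b, a spindle checkpoint kinase, rose from 6.54 to 18.4 CPM (2.81-fold, 1.72 to 4.59), and the spindle factor Tpx2 rose from 5.18 to 18.3 CPM (3.54-fold, 1.94 to 6.45). Implied errors were wide in this list, with a median of 0.45 on the log2 scale against 0.32 for all higher genes. None of these calls held by the F reading.

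These genes are textbook cases of a shared promoter layout, a CCAAT box upstream and a cell cycle element, the word TTTGAA, near the start. The list was drawn up from genes known for it, so the counts describe the set. Of 19 members with a promoter sequence, 16 held CCAAT (84.2%), against 38.3% of all 10375 promoters. TTTGAA was present in 14 (73.7%) against 11.8%, and both words in 13 (68.4%) against 4.93%. The highest number of CCAAT words in a window was 6, and 2 members held neither word. The windows of 5 members are shown, cut and written as above, with both words or their reverse complements in capitals:
Ccnb2, chr9:70421545-70421694, minus strand: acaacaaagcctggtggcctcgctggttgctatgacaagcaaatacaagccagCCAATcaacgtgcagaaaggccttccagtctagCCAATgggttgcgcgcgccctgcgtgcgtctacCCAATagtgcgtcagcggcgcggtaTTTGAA
Cdk1, chr10:69352903-69353052, minus strand: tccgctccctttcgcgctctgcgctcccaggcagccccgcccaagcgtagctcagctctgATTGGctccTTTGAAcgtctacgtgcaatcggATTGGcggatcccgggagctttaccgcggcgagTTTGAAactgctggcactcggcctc
Cdc20, chr4:118437334-118437483, minus strand: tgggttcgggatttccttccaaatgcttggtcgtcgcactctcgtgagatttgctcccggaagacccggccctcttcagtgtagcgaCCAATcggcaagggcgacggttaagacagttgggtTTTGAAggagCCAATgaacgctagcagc
Cenpf, chr1:189688077-189688226, minus strand: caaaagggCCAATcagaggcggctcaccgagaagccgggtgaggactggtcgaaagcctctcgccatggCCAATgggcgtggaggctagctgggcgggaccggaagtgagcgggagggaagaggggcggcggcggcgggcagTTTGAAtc
Top2a, chr11:99024180-99024329, minus strand: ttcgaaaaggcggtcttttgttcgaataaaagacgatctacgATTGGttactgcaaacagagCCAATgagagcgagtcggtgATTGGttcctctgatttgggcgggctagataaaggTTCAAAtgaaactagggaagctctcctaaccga

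Cdk1, the kinase that drives entry into mitosis, rose from 8.44 to 20.4 CPM (2.42-fold, 1.43 to 4.08). The other 3 genes shown were chosen for their windows after their values were seen. Cdc20, an activator of the anaphase complex, rose from 5.59 to 12.9 CPM (2.32-fold, 1.34 to 4.02). Cenpf, a kinetochore protein, rose from 5.36 to 21.1 CPM (3.94-fold, 1.99 to 7.78). Top2a, the topoisomerase that untangles chromosomes, rose from 13.1 to 42.2 CPM (3.23-fold, 1.67 to 6.24). No call here held by the F reading.

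The same 10375 windows were searched for 7 other words. The AP-1 word TGANTCA was in 6.57% of higher, 5.26% of lower and 5.09% of all promoters. The TEAD word CATTCCA was in 4.23%, 3.41% and 2.99%, the TATA word TATAAA in 9.23%, 9.7% and 7.24%, and the STAT word TTCCNGGAA in 1.49%, 1.24% and 1.33%. The HNF4 word CAAAGTCCA was in 0.469%, 0.516% and 0.376%, and the ERR word TCAAGGTCA in 0.235%, 0.619% and 0.27%. Set against genes not called, the ERR word was in 6 of 969 lower promoters and 19 of 8128 not called (0.234%). The TEAD word was in 2.74% of those not called. The ETS word ACCGGAAGT was rarer in called genes, in 0.704% of higher and 0.619% of lower promoters against 2.49% of those not called. None of these shares was tested.

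Cyclins and their kinases rose in 9 of 18 members (1 by the F reading, 10 with equal totals). Cdk14, a membrane-linked kinase, rose from 8.51 to 26.5 CPM (3.12-fold, 2.24 to 4.34), and Cdk6, which drives exit from G1, rose from 30.8 to 57.9 CPM (1.88-fold, 1.45 to 2.43). Brakes on the cycle and senescence genes rose in 8 of 17 members (2 by the F reading, 8 with equal totals) and fell in 2 (0 by the F reading, 1 with equal totals). Cdkn2a, which encodes p16 and p19, rose from below 0.1 to 0.94 CPM. Cdkn1a, the p21 inhibitor, rose from 35.3 to 77.5 CPM (2.2-fold, 1.49 to 3.24). Lmnb1, a lamin that is lost in senescent cells, rose from 16.6 to 39.6 CPM (2.39-fold, 1.73 to 3.3), and Cdkn1c, the p57 inhibitor, fell from 62.1 to 34.4 CPM (1.8-fold, 1.32 to 2.45). Cdk14 and Cdkn2a also passed by the F reading.

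Growth factors and their receptors carry signals between tubule, stroma and vessel cells. Among 18 genes of EGF ligands and receptors, 6 rose (1 by the F reading, 9 with equal totals) and 1 fell (1 by the F reading, 1 with equal totals). Egf (chromosome 3, 129677574 to 129755322), made in the thick limb and distal tubule, fell from 2171 to 478 CPM (4.54-fold, 2.81 to 7.33). Nrg1, a ligand of the Erbb3 and Erbb4 receptors, rose from 4.16 to 17.2 CPM (4.12-fold, 2.58 to 6.59). Btc rose from 15 to 43 CPM (2.87-fold, 1.93 to 4.28), Tgfa rose from 6.96 to 16.1 CPM (2.32-fold, 1.67 to 3.23) and Hbegf rose from 18.1 to 39.3 CPM (2.17-fold, 1.54 to 3.04), all ligands of the EGF receptor. Ereg rose from below 0.1 to 0.861 CPM and Epgn from below 0.1 to 0.185 CPM. None of the receptors of the family was called. Egf and Nrg1 also passed by the F reading.

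Of 27 TGF-beta, activin and BMP genes, 11 rose (6 by the F reading, 15 with equal totals) and 1 fell (0 by the F reading, 1 with equal totals). The 3 TGF-beta ligands rose, Tgfb2 from 6.29 to 32 CPM (5.08-fold, 3.57 to 7.23), Tgfb3 from 6.2 to 23.8 CPM (3.84-fold, 2.63 to 5.61) and Tgfb1 from 25.1 to 46.6 CPM (1.85-fold, 1.3 to 2.64). The activin subunits Inhba and Inhbb rose from 1.22 to 13.1 CPM (10.7-fold, 6.37 to 18.1) and from 2.62 to 20 CPM (7.65-fold, 4.49 to 13). Sostdc1, a secreted inhibitor of BMP and Wnt signals, fell from 196 to 88.9 CPM (2.2-fold, 1.49 to 3.26). Tgfb2, Tgfb3, Inhba and Inhbb also passed by the F reading.

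Of 43 Wnt ligands, receptors and inhibitors, 14 rose (7 by the F reading, 18 with equal totals) and none fell, while their median stayed at 0.30. Wnt7a (chromosome 6, 91363981 to 91411353) rose from below 0.1 to 7.57 CPM. Wnt9a rose from 3.39 to 13.9 CPM (4.11-fold, 2.75 to 6.14). Wnt10a rose from 1.26 to 5.14 CPM (4.06-fold, 2.63 to 6.27) and Wnt2 rose from 0.803 to 3.49 CPM (4.34-fold, 2.55 to 7.4). Frzb, a secreted decoy for Wnt ligands, rose from 11.5 to 56.4 CPM (4.9-fold, 3.57 to 6.71). All of these calls held by the F reading.

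The YAP target list, genes switched on by stretch and loss of cell contact, rose in 9 of 20 members (3 by the F reading, 13 with equal totals). Ankrd1 rose from 2 to 54 CPM (27-fold, 16.6 to 44). F3, the tissue factor that starts clotting, rose from 19.4 to 80.2 CPM (4.14-fold, 3.11 to 5.52). Cyr61 and Ctgf, matrix-associated growth modulators, rose from 36.6 to 124 CPM (3.39-fold, 2.08 to 5.52) and from 282 to 723 CPM (2.56-fold, 1.63 to 4.03), and the junction protein Ajuba rose from 41.8 to 85.3 CPM (2.04-fold, 1.56 to 2.67). Ankrd1 and F3 also passed by the F reading.

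Among 37 genes of other growth factors, 5 rose (2 by the F reading, 11 with equal totals) and 6 fell (0 by the F reading, 2 with equal totals). Of all named genes averaging 1 CPM or more, 12.7% were called higher and 9.23% lower, so the higher count was near that background. Igfbp2, a binding protein of insulin-like growth factors, rose from 17.2 to 243.2 CPM (14.1-fold, 9.2 to 21.7), while Igfbp5 and Igfbp4 of the same family fell from 1082 to 609.9 CPM (1.77-fold, 1.18 to 2.67) and from 833 to 504 CPM (1.65-fold, 1.17 to 2.34). Among FGF receptors, Fgfr2 rose from 43.3 to 83.1 CPM (1.92-fold, 1.51 to 2.43), and Fgfr3 and Fgfr4 fell from 76.4 to 39.2 CPM (1.95-fold, 1.44 to 2.63) and from 36 to 17.8 CPM (2.02-fold, 1.54 to 2.65). The ligand Fgf10 rose from 1.05 to 2.39 CPM (2.28-fold, 1.3 to 3.97) and Fgf1 fell from 118 to 74.6 CPM (1.58-fold, 1.21 to 2.06). Pdgfb, which recruits pericytes, rose from 40.5 to 69 CPM (1.7-fold, 1.3 to 2.24), and Vegfa, the main vessel growth factor, fell from 349.5 to 211 CPM (1.66-fold, 1.23 to 2.23). Igfbp2 and Fgfr2 also passed by the F reading. Igfbp5, Igfbp4, Fgf1 and Vegfa did not pass with equal totals.

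**Figure D5:**
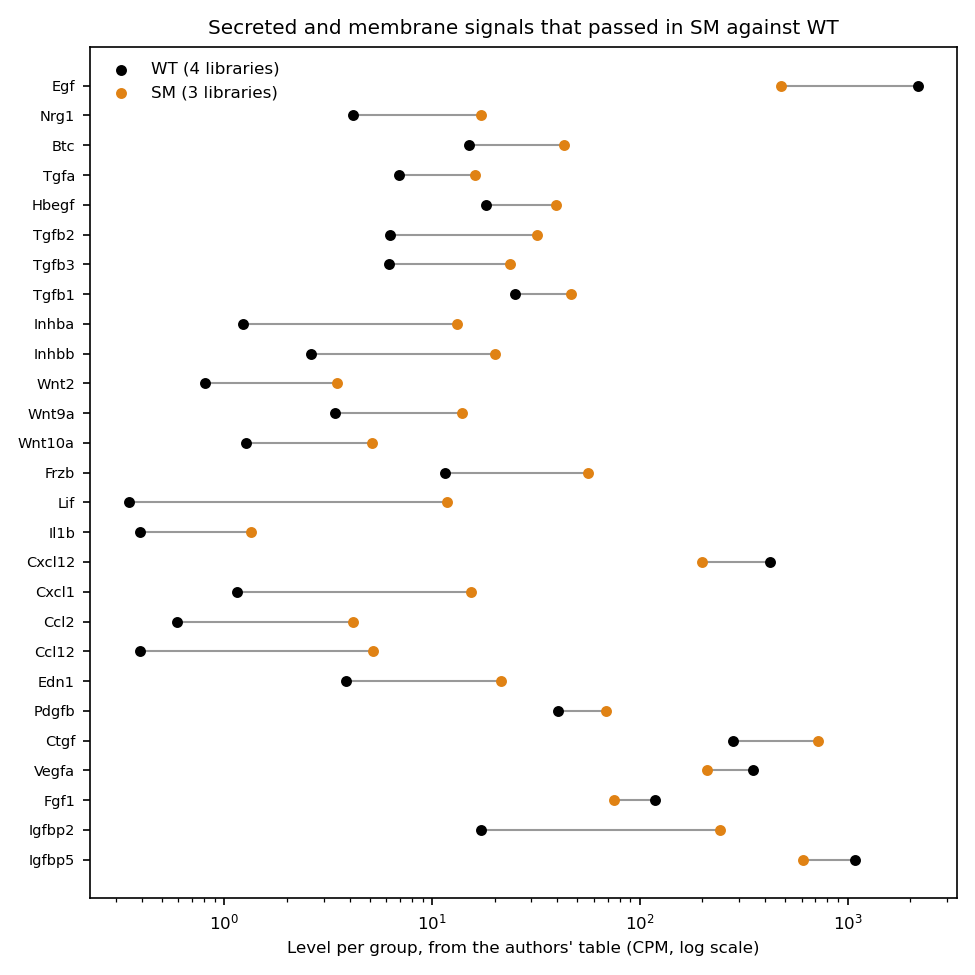
Levels in WT (black, 4 libraries) and SM (orange, 3 libraries), in CPM on a log axis, of 27 signalling genes that were called, taken from the fold changes and averages of the authors' deposited table. Egf, Cxcl12, Vegfa, Fgf1 and Igfbp5 were lower in SM and the other 22 were higher.

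Cyst-bearing kidneys are known for inflammation, in which tubule cells release signals that draw and activate leukocytes. Of 29 genes of the interleukin-1 and interleukin-6 families, 20 rose (9 by the F reading, 21 with equal totals) and 1 fell (0 by the F reading, 0 with equal totals). Lif, a ligand of the interleukin-6 family, rose from 0.347 to 11.7 CPM (33.8-fold, 18.6 to 61.3). Il1f6, an interleukin-36 of epithelia, rose from below 0.1 to 1.71 CPM. Il1r1, the receptor of interleukin-1, rose from 13 to 56.1 CPM (4.31-fold, 3.22 to 5.77). Il1b stayed at low level and rose from 0.394 to 1.34 CPM (3.41-fold, 1.75 to 6.67). Socs3, a feedback inhibitor that STAT3 induces, rose from 4.36 to 34.3 CPM (7.87-fold, 5.16 to 12). Il11ra1, a receptor chain, fell from 43.9 to 28.1 CPM (1.56-fold, 1.18 to 2.06). Lif, Il1f6, Il1r1 and Socs3 also passed by the F reading. Il11ra1 did not pass with equal totals.

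Of 27 CC chemokines and receptors, 16 rose (8 by the F reading, 16 with equal totals) and none fell. Ccl2, which draws monocytes, rose from 0.588 to 4.15 CPM (7.05-fold, 3.22 to 15.5), and its receptor Ccr2 rose from 2.78 to 13.6 CPM (4.9-fold, 3.06 to 7.85). Ccl12 rose from 0.392 to 5.21 CPM (13.3-fold, 6.19 to 28.6), Ccl20 rose from below 0.1 to 1.01 CPM and Ccr1 rose from 0.911 to 10.9 CPM (12-fold, 7.09 to 20.2). Of 24 CXC and CX3C genes, 10 rose (6 by the F reading, 10 with equal totals) and 2 fell (0 by the F reading, 2 with equal totals). The neutrophil attractants Cxcl1 and Cxcl2 rose from 1.15 to 15.3 CPM (13.3-fold, 7.26 to 24.3) and from below 0.1 to 1.71 CPM. Cxcl12, a chemokine of stromal cells, fell from 423 to 199 CPM (2.13-fold, 1.57 to 2.89), and Cxcl13 fell from 0.657 to 0.107 CPM (6.13-fold, 1.98 to 18.9). Ccr2, Ccl12, Ccl20, Ccr1, Cxcl1 and Cxcl2 also passed by the F reading.

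Of 33 TNF ligands and receptors, 11 rose (3 by the F reading, 13 with equal totals). Tnf rose from below 0.1 to 1.62 CPM, and Tnfsf8, the CD30 ligand, rose from below 0.1 to 5.34 CPM. Eda2r, a receptor induced by p53, rose from 0.397 to 3.92 CPM (9.87-fold, 5.64 to 17.3). Complement genes rose in 13 of 27 members (8 by the F reading, 15 with equal totals) and fell in 2 (0 by the F reading, 2 with equal totals). The first component genes C1qa and C1qb, made by macrophages, rose from 10.3 to 53.5 CPM (5.2-fold, 3.69 to 7.33) and from 12.2 to 60.6 CPM (4.96-fold, 3.38 to 7.29). Cfi, a complement protease, rose from 4.15 to 24.1 CPM (5.81-fold, 3.92 to 8.6). The lower members were C8a and Hc, products of liver cells, at 1.66 CPM in WT and 0.289 CPM in SM and at 1.02 CPM in WT and below 0.1 CPM in SM. Tnf, Tnfsf8, Eda2r, C1qa, C1qb and Cfi also passed by the F reading.

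Macrophage and dendritic cell genes rose in 19 of 30 members (13 by the F reading, 19 with equal totals), with a median of 2.03. Their summed level was 306 CPM in WT and 577 CPM in SM. Mrc1, the mannose receptor of tissue macrophages, rose from 9.25 to 54.2 CPM (5.86-fold, 4.32 to 7.94). Cd14, a receptor for bacterial lipid also made by tubules, rose from 5.2 to 41.9 CPM (8.06-fold, 5.66 to 11.5). Emr1, the F4/80 antigen, rose from 4.53 to 21.7 CPM (4.79-fold, 3.25 to 7.05), Fcgr3 rose from 4.16 to 23.9 CPM (5.74-fold, 3.89 to 8.46) and Cx3cr1 rose from 3.88 to 26.9 CPM (6.92-fold, 4.38 to 10.9). Csf1r, the receptor that keeps macrophages alive, rose from 60.1 to 87.5 CPM (1.46-fold, 1.11 to 1.91). Ly6c1, also known from endothelium, fell from 75.2 to 46.3 CPM (1.62-fold, 1.15 to 2.3). Lysosome genes were called in both directions, with 7 of 31 higher (4 by the F reading, 7 with equal totals) and 3 lower (0 by the F reading, 0 with equal totals). The lower count was near the background of 9.23% of named genes averaging 1 CPM or more. Ctss, a protease of antigen-presenting cells, rose from 9.48 to 56.4 CPM (5.95-fold, 3.85 to 9.2), whereas the general membrane protein Lamp1 stood at 1282 CPM in WT and 1016 CPM in SM (1.26-fold lower, 0.858 to 1.86). Mrc1, Cd14, Emr1, Fcgr3, Cx3cr1 and Ctss also passed by the F reading. Ly6c1 did not pass with equal totals.

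Of 19 genes of antigen presentation, 5 rose (2 by the F reading, 5 with equal totals). H2-Aa rose from 22.6 to 53.9 CPM (2.38-fold, 1.27 to 4.47), Cd74 rose from 49.2 to 129 CPM (2.62-fold, 1.35 to 5.09) and the costimulator Cd86 rose from 1.18 to 4.79 CPM (4.08-fold, 2.5 to 6.65), while H2-Ab1 stood at 39.7 CPM in WT and 99.99 CPM in SM (2.52-fold higher, 1.12 to 5.64). The other leukocyte genes that were measured stayed low. Of 19 lymphocyte genes, 3 rose (0 by the F reading, 3 with equal totals), and their summed level was 13.9 CPM in WT and 17.8 CPM in SM. This sum leaves out Trac, Ighm and Igkc, which were written on the list but not matched, as was Ly6g of the neutrophil list. Cd3e, which marks T cells, stood at 0.202 CPM in WT and 0.298 CPM in SM (1.48-fold higher, 0.475 to 4.6). Of 17 neutrophil and mast cell genes, 3 rose (0 by the F reading, 5 with equal totals) and 1 fell (0 by the F reading, 1 with equal totals). S100a8 rose from 0.738 to 2.6 CPM (3.52-fold, 1.93 to 6.43) and S100a9 from 1.51 to 3.02 CPM (1.99-fold, 1.23 to 3.22). Cd86 also passed by the F reading.

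Interstitial matrix rose in 23 of 30 genes (11 by the F reading, 26 with equal totals), with a median of 1.34, and none fell. Their summed level went from 3318 to 8765 CPM. Both chains of collagen I rose, Col1a1 from 113 to 585 CPM (5.16-fold, 3.31 to 8.06) and Col1a2 from 259.8 to 757 CPM (2.91-fold, 2 to 4.24). Col3a1 rose from 303 to 1255 CPM (4.15-fold, 2.62 to 6.58). Eln, elastin, rose from 88.8 to 292 CPM (3.28-fold, 2.42 to 4.46), and the microfibril protein Fbn1 rose from 57.1 to 172 CPM (3.01-fold, 2.3 to 3.93). Col8a1, a short-chain collagen, rose from 11.8 to 50.9 CPM (4.31-fold, 3.22 to 5.76). All of these calls held by the F reading.

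Basement membrane genes rose in 17 of 30 members (3 by the F reading, 19 with equal totals). Col4a1 and Col4a2, which form the network of all basement membranes, rose from 1040.3 to 2014 CPM (1.94-fold, 1.3 to 2.89) and from 701 to 1303 CPM (1.86-fold, 1.28 to 2.71). Itgb4, an integrin that anchors epithelia to this layer, rose from 11.5 to 58.1 CPM (5.03-fold, 3.41 to 7.42). Fras1, known from embryonic epithelia, rose from 64.6 to 225 CPM (3.49-fold, 2.55 to 4.77), and the proteoglycan Agrn rose from 273 to 603 CPM (2.21-fold, 1.59 to 3.08). Itgb4 and Fras1 also passed by the F reading.

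Matrix proteases and their inhibitors rose in 17 of 35 members (10 by the F reading, 23 with equal totals) and fell in 2 (0 by the F reading, 1 with equal totals). Timp1, an inhibitor of metalloproteases, rose from 0.624 to 23.6 CPM (37.8-fold, 19.2 to 74.5). Mmp7, matrilysin, an epithelial protease, rose from below 0.1 to 2.39 CPM. Mmp2 rose from 28.9 to 69.7 CPM (2.42-fold, 1.65 to 3.53), Adamts2, which trims procollagen, rose from 17.6 to 72.2 CPM (4.11-fold, 2.97 to 5.68), and Prss23 rose from 53.3 to 182 CPM (3.41-fold, 2.59 to 4.49). Plg, plasminogen, a liver product, fell from 3.75 to below 0.1 CPM. Timp1, Mmp7, Adamts2 and Prss23 also passed by the F reading.

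Contractile and myofibroblast genes rose in 13 of 19 members (7 by the F reading, 15 with equal totals) and none fell. Acta2, smooth muscle actin, rose from 93.7 to 508 CPM (5.42-fold, 3.32 to 8.84), and Tagln rose from 96 to 477 CPM (4.97-fold, 3.25 to 7.58). Thy1, a surface marker of fibroblasts and T cells, rose from 3.06 to 31.2 CPM (10.2-fold, 5.75 to 18.1). The tropomyosin Tpm1 rose from 199.8 to 681 CPM (3.41-fold, 2.45 to 4.75). Of 26 S100 and annexin genes, 12 rose (4 by the F reading, 16 with equal totals). S100a14, of epithelia, rose from 5.08 to 53.9 CPM (10.6-fold, 7.34 to 15.4), S100a6 rose from 58.1 to 251 CPM (4.32-fold, 2.57 to 7.25) and Anxa1 rose from 20.1 to 76.3 CPM (3.8-fold, 2.75 to 5.25). Each of these calls held by the F reading.

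Of 22 hormone system genes of the kidney, 6 fell (1 by the F reading, 3 with equal totals) and 2 rose (1 by the F reading, 2 with equal totals). Klk1, kallikrein, fell from 1660.2 to 365 CPM (4.54-fold, 2.83 to 7.29). Kl, the FGF23 coreceptor Klotho, fell from 699.8 to 352 CPM (1.99-fold, 1.35 to 2.93), and Pth1r, the parathyroid hormone receptor, fell from 566 to 292 CPM (1.93-fold, 1.34 to 2.8). Edn1, endothelin-1, rose from 3.85 to 21.5 CPM (5.6-fold, 3.91 to 8.01), and its receptor Ednra rose from 6.18 to 14.6 CPM (2.37-fold, 1.59 to 3.53). Agt, angiotensinogen, stood at 117 CPM in WT and 119 CPM in SM (1.02-fold higher, 0.777 to 1.33). Klk1 and Edn1 also passed by the F reading.

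Glomeruli and vessels lie outside the known range of the driver. Of 15 podocyte genes, 5 fell (0 by the F reading, 3 with equal totals), and with equal totals 2 were called higher. Nphs1, nephrin, fell from 48.2 to 27.4 CPM (1.76-fold, 1.31 to 2.35), and Podxl, podocalyxin, fell from 386 to 209.6 CPM (1.84-fold, 1.36 to 2.49). The F reading ended these calls. The authors' edgeR test called none of the 17 endothelial genes, of which 2 had an unadjusted p below 0.05, and neither did the other readings. Pecam1 stood at 139.9 CPM in WT and 165 CPM in SM (1.18-fold higher, 0.886 to 1.57) and Cdh5 at 117 CPM in WT and 145 CPM in SM (1.24-fold higher, 0.818 to 1.88).

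Markers of other tissues that a kidney sample can carry along were measured beside these lists. Of 25 hepatocyte markers, 14 fell (1 by the F reading, 13 with equal totals) and 2 rose (2 by the F reading, 4 with equal totals). Their summed level was 439 CPM in WT and 361 CPM in SM. Alb, albumin, fell from 132 to 0.328 CPM (404-fold, 53.2 to 3066), Ahsg fell from 27.7 to below 0.1 CPM and Apoa1 fell from 12.1 to 0.514 CPM (23.6-fold, 5.39 to 103). The fibrinogen chains Fga and Fgg rose from 27.8 to 103 CPM (3.69-fold, 2.29 to 5.96) and from 6.98 to 43.1 CPM (6.18-fold, 3.66 to 10.4). Serpina1a, whose copies share reads, stood at 16 CPM in WT and 28.1 CPM in SM (1.76-fold higher, 1.04 to 2.95). The deposited table does not show how many WT libraries carry the liver products. Their part in the lower amino acid, complement and protease genes that liver also makes, such as Bhmt, C8a, Hc and Plg, was not tested. Without the genes on any list of another tissue, the only list whose count moved by over 1.5 times was that of lower protease genes, from 2 to 1. This setting drops only genes written on those lists, and C8a and Hc were not among them. It therefore does not measure how much liver RNA adds to these lists. Alb, Fga and Fgg also passed by the F reading.

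Of 13 adrenal markers, 3 fell (0 by the F reading, 3 with equal totals) and 1 rose (0 by the F reading, 1 with equal totals), with a summed level of 9.51 CPM in WT and 4.42 CPM in SM. Pancreas markers held 1 lower gene of 16 (0 by the F reading, 1 with equal totals), Cela1, which fell from 94.1 to 25.7 CPM (3.67-fold, 2.17 to 6.21). The list summed to 95.2 CPM in WT and 26.4 CPM in SM, so Cela1 made up nearly all of it and the other markers were close to absent. The rows of Prss1 and Prss2, of the renin gene Ren1 and of the globin genes Hba-a1 and Hba-a2 all stood at the lowest average with a fold change of 0, so they say nothing of the level of these genes. Fat markers had a median of -1.02 and 1 lower gene of 10 (0 by the F reading, 0 with equal totals), with a summed level of 784 CPM in WT and 481 CPM in SM. Adipoq, adiponectin, stood at 17.8 CPM in WT and 11.2 CPM in SM (1.59-fold lower, 0.464 to 5.42). Skeletal muscle markers summed to 20.8 and 5.25 CPM, of which Pvalb made up most in WT. Erythroid markers summed to 677 and 449.9 CPM. Of 9 measured, 1 rose (0 by the F reading, 1 with equal totals) and 1 fell (1 by the F reading, 1 with equal totals). The lower one was Slc4a1, counted above with the intercalated cell genes. The labels give no sex. Xist, which is expressed from the inactive X chromosome, stood at 812 CPM in WT and 686 CPM in SM (1.18-fold lower, 0.153 to 9.16), and Ddx3y, on the Y chromosome, stood at 16.7 CPM in WT and 25 CPM in SM (1.5-fold higher, 0.131 to 17.1). Of 14 sex-dependent genes, 3 fell (0 by the F reading, 1 with equal totals). The part of other tissues and of sex in the results above was not tested.

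When miR-21 was absent as well, few named genes differed from SM. The DM against SM comparison shares its SM animals with the comparison above and called 18 named genes (0.0773%). Adh7 and Lpo, chosen after their values were seen, are shown with all 3 groups. Adh7, an alcohol and retinol dehydrogenase, stood at 2.13 CPM in WT, 25.2 CPM in SM and 7.91 CPM in DM. Lpo, lactoperoxidase, stood at 0.866 CPM in WT, 2.66 CPM in SM and 0.137 CPM in DM. Both were higher in SM than in WT and lower in DM than in SM, but both comparisons use the same SM animals, so the opposite directions are not independent. For DM against SM the authors' deposited table gave an adjusted p of 0.0276 for Adh7 and of 1.58e-12 for Lpo. By the F reading 0 named genes were called in DM against SM, so these calls ended there. With few genes called, adjustment over all rows makes that reading hard to pass for any gene. It therefore cannot show that no gene differs.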

How the data were processed

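RNA of whole kidneys from 10 mice at postnatal day 21 was sequenced from stranded total RNA libraries, per the labels' protocols. Per the submitters' processing notes, the tools were edgeR 3.2.4, featureCounts, Subread 1.4.6, Cufflinks, TopHat2 2.0.12 and bcl2fastq 1.8.4, with the build mm10. What each tool did, whether strand was used in counting, and library sizes are not stated in the labels or headers. Depth is therefore unknown.

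The authors deposited 3 comparison tables. Per the file headers, a row gives the fold change and the average level, both on the log2 scale, a likelihood ratio score, and its p-value before and after adjustment. Checked on the files, the deposited p-values follow from the scores by a chi-square distribution, the adjusted ones follow by the Benjamini-Hochberg method over 30431 rows, and the fold changes of the 3 tables add up, as in a single fit of 10 libraries. The planned edgeR quasi-likelihood test needs counts and could not be run. Calls therefore rest on the adjusted p of edgeR's likelihood ratio test as the authors deposited it, with a threshold of 0.05, which was the planned replacement.

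Group levels were solved from the deposited averages, read as log2 of the mean CPM over the libraries, and the fold changes. They are approximate, most of all close to the lowest level. The implied standard error of a log2 fold change is its size over the root of the likelihood ratio, and the 95% intervals assume a normal distribution. The code was tested on simulated data. Libraries are separate animals. The p-values test the difference between groups against the variation between animals that the authors' fit estimated, and DM animals entered that fit too.

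The 60 gene lists, the groups of genes described and the alternatives were chosen with earlier results of these data known. Of the symbols written, 8 were not matched. Genes were named by a rule: for each list its first 2 members and up to 4 called genes with the highest likelihood ratio in each direction, all called genes of 2 growth factor families, and over all named genes the 15 highest likelihood ratios, the 10 highest averages and the 6 largest folds among genes of at least 10 CPM, each per direction. Others are said to be chosen after their values were seen. Some genes that the rule names are not reported here. RefSeq tables on GRCm38.p6, the assembly mm10 names, matched 23126 of 23276 names and gave promoters for 16319, of which the 10375 of at least 1 CPM were searched. Python 3.11.15, pandas 2.3.3, numpy 2.4.6, scipy 1.17.1 and matplotlib 3.10.9 were used. Alternatives were an adjusted p below 0.01, rows of at least 1 CPM, adjustment over named rows, a log2 fold change of at least 1, the F distribution, centring on the median, equal group totals, and lists without genes of other tissues.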

Additional observations from a re-analysis of the deposited data

How the results depend on the processing

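Of the alternatives run, only equal totals and centring on the median move the fold changes. The first is an upward shift of 0.22 and the second centres on a median of -0.01. Shifts this small turned none of the 315 called named genes, whose direction was not otherwise put to a test. With equal totals the median log2 fold change of 6 of 60 lists turned positive, namely the medullary (0.18), lysosome (0.10), proteasome (0.03), prostaglandin (0.13), podocyte (0.12) and endothelial (0.18) lists, and with centring on the median that of 0. Of 3590 genes called, 2260 reached a log2 fold change of at least 1 and 636 passed with the F distribution. The 2134 higher genes became 512 with the F distribution and 3253 with equal group totals. The 1456 lower genes became 902 at an adjusted p below 0.01, 704 at a log2 fold change of at least 1, 124 with the F distribution and 825 with equal totals, an alternative chosen after the data were seen. Higher genes made up 59.4% of the calls as deposited, 68.9% at a log2 fold change of at least 1, 79.8% with equal totals and 80.5% with the F distribution. Of 371 named genes, 315 were called, and 172 lost the call with the F distribution, 64 at a log2 fold change of at least 1, 59 at an adjusted p below 0.01, 39 with equal totals and 3 with centring on the median. The 18 genes called in DM against SM became 6 at an adjusted p below 0.01, 11 over rows of at least 1 CPM and 0 with the F distribution. There edgeR's likelihood ratio gave 724 named genes an unadjusted p below 0.05, and 1.4% of named genes had one with the F distribution. No library could be left out and no paired analysis was possible because the deposited tables hold no value per library and the animal numbers differ between groups. Without library sizes, what depth limits cannot be given, and folds close to the lowest level are the least certain.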

Other observations

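Several genes known from neurons were among those called. Of 20 measured, 6 rose (3 by the F reading, 7 with equal totals) and 2 fell (1 by the F reading, 1 with equal totals), with summed levels of 33.7 CPM in WT and 66.1 CPM in SM. The RNA-binding proteins Elavl4 and Elavl3 are close relatives and went in opposite directions. Elavl4 rose from below 0.1 to 2.6 CPM, and Elavl3 fell from 1.55 to 0.25 CPM (6.19-fold, 3.29 to 11.7). Tubb3, a neuronal tubulin, rose from 0.134 to 2.32 CPM (17.4-fold, 6.8 to 44.3), and the adhesion molecule Ncam1, also known from the developing kidney, rose from 11.7 to 34.1 CPM (2.92-fold, 2.18 to 3.92). Guidance genes rose in 10 of 51 members (3 by the F reading, 19 with equal totals) and fell in 2 (0 by the F reading, 1 with equal totals). Slit3 rose from 23.9 to 73.2 CPM (3.06-fold, 2.26 to 4.14), Sema3c rose from 64 to 158 CPM (2.46-fold, 1.83 to 3.31) and Ephb6 rose from 3.5 to 17.5 CPM (4.99-fold, 3.4 to 7.34), whereas Sema4g fell from 81.7 to 33.7 CPM (2.42-fold, 1.68 to 3.49). Elavl4, Elavl3, Tubb3, Ncam1, Slit3, Sema3c and Ephb6 also passed by the F reading.

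Imprinted fetal growth genes were called in both directions. Of 19 measured, 5 rose (1 by the F reading, 8 with equal totals) and 3 fell (0 by the F reading, 2 with equal totals). H19 and Igf2, which share an imprinted domain, stood at 9.37 CPM in WT and 7.31 CPM in SM (1.28-fold lower, 0.709 to 2.32) and at 6.57 CPM in WT and 5.71 CPM in SM (1.15-fold lower, 0.705 to 1.88). Sgce rose from 10.4 to 24.6 CPM (2.37-fold, 1.75 to 3.21) and Nnat rose from 4.26 to 18.6 CPM (4.36-fold, 2.15 to 8.85), and Dlk1 fell from 2.78 to 0.841 CPM (3.3-fold, 1.78 to 6.12). Prostaglandin genes were also called in both directions, with 3 of 17 higher (0 by the F reading, 3 with equal totals) and 3 lower (1 by the F reading, 2 with equal totals). The cyclooxygenases Ptgs1 and Ptgs2 stood at 34.7 CPM in WT and 36.8 CPM in SM (1.06-fold higher, 0.814 to 1.38) and at 4.26 CPM in WT and 4.19 CPM in SM (1.01-fold lower, 0.658 to 1.57). The phospholipase Pla2g4a rose from 24.9 to 43.3 CPM (1.74-fold, 1.33 to 2.28), and of the E2 receptors Ptger4 rose from 6.05 to 12.5 CPM (2.07-fold, 1.45 to 2.95) while Ptger3 fell. By kind of gene, 10.2% of 20321 protein-coding genes were called higher and 6.92% lower, against 2.34% and 1.93% of 1708 long noncoding RNA genes. Sgce also passed by the F reading.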
